A study of Mus musculus with 12 samples.

Results

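T cell receptor proximal signalling genes were followed across 12 RNA sequencing libraries of mouse follicular helper T cells. The group was set by symbol as 46 genes that encode the receptor complex and its coreceptors, the kinases and phosphatases around them, adaptors, ubiquitin ligases, and the diacylglycerol, calcium and NFAT branches. All 46 were among the 25793 gene entries of the count table, and the rule that picks them uses symbols alone. After the filter on low counts 44 of the 46 were tested, among 7542 genes in all. Grap2 and Sos1 fell below the filter.

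The libraries held CXCR5-high, GFP-positive CD4+ OT-II T cells on a C57BL/6 background, 6 from wild-type cells (WT, Pdcd1+/+) and 6 from cells homozygous for a Pdcd1 knock-in (KI). OT-II cells carry a transgenic receptor for an ovalbumin peptide, so both groups share that transgene. Both were transduced with GFP, transferred into B6 mice with dsRed-expressing MD4 B cells, which recognise hen egg lysozyme, and taken from lymph nodes 5 days after immunization with HEL-OVA, LPS and alum. Each library was made from 100 to 200 sorted cells with an amplification protocol first made for single cells. The labels do not say what the knock-in allele changes, how old the mice were, or whether libraries came from separate mice. Titles also carry 2 numbers, the first 1 or 2 and the second 1 to 3, whose meaning the labels do not give. A library is named here by genotype and both numbers, as in WT 1-2, and each first number holds 3 libraries of each genotype. If the libraries are not from separate animals, the p-values measure only the spread between these libraries.

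Binding of peptide and MHC to the T cell receptor lets the kinase Lck, carried by CD4, phosphorylate the CD3 and zeta chains, which then recruit the kinase Zap70. Zap70 phosphorylates the adaptors Lat and SLP-76 (Lcp2), around which phospholipase C-gamma, Vav and Ras activators assemble. The products are diacylglycerol, which activates Rasgrp1 and protein kinase C theta, and calcium entry, which activates calcineurin and NFAT. PD-1, the product of Pdcd1, is abundant on follicular helper T cells and dampens this cascade by recruiting the phosphatase Shp-2 (Ptpn11), which acts on phosphorylated proteins.

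Total gene counts ran from 717506 to 1801504 per library, of which 1.34% to 1.80% fell on the members, and 45 or 46 of the 46 members had at least 1 count in each library. Pdcd1, the gene with the knock-in, was compared to see whether the labelled groups differ at it. The labels give no direction to expect. Its level, in counts scaled to a common library size (CPM), was 292 ± 151 for WT libraries against 70.0 ± 47.1 for KI libraries (SD, n = 6 each), and no KI library reached the lowest WT library (exact permutation p 0.00216, two-sided, the smallest that 924 splits allow). On the log2 scale the difference was -2.05 (SE 0.42), and its edgeR adjusted p over all genes was 0.231. Within first number 1 it was -1.88 (edgeR adjusted p 0.04) and within first number 2 -2.68 (edgeR adjusted p 0.00103). Among T cell and follicular helper markers outside the member list, 8 of 10 were in the table and all 8 had counts. Their summed level was 2250 to 2746 CPM among WT and 2028 to 3112 CPM among KI libraries.

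The genes of the CD3 subunits lie together in the genome, and their start regions are shown because 2 of them face each other and differed little by genotype or first number, while those of Cd247 and Cblb are shown because these members moved in opposite directions between first numbers. Each is the 150 bases upstream of the RefSeq start on the GRCm38.p6 build, written in the direction of transcription, with the core of ETS factor motifs, GGAAG or its complement CTTCC, in capitals. Coordinates of these windows belong to that build only, whereas the counts were made on mm9.
Cd3d, plus strand, chr9:44981636-44981785: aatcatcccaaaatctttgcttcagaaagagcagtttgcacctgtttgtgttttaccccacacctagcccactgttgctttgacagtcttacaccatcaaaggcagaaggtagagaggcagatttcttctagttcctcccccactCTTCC
Cd3g, minus strand, chr9:44980432-44980581: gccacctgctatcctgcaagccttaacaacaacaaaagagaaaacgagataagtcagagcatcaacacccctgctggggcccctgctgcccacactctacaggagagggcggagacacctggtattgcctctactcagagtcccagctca
Cd247, plus strand, chr1:165788531-165788680: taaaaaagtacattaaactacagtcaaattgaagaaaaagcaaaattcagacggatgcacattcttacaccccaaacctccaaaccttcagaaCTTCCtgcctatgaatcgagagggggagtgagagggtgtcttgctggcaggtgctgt
Cblb, plus strand, chr16:52031399-52031548: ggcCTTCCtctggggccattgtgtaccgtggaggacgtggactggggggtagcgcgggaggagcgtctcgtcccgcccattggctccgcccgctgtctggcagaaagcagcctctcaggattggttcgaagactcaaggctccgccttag
The starts of Cd3d and Cd3g are 1355 bases apart on opposite strands. The ETS core, on either strand, was in the window of 23 of the 38 members with a RefSeq promoter entry (60.5%) and of 51.1% of the 27025 symbols in the table. The RUNX motif TGTGGT, searched on both strands, was in 3 of the 38 (7.9%) and in 9.7% of all symbols. These matches are a description of letters in a window and not of bound sites.

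Levels were compared between genes with the authors' FPKM values, which are scaled to transcript length. The members spanned from 989 ± 132 FPKM (SD over 12 libraries) for Cd3g to 0.458 ± 0.336 FPKM for Sos1. Next to Cd3g stood Lat, the membrane adaptor at which the signalling complex assembles, at 943 ± 273 FPKM. Cd3g exceeded Lat in only 6 of 12 libraries, and the order of their means differed between first numbers. At first numbers 1 and 2 Lat averaged 1154 ± 222 and 731 ± 82.7 FPKM (SD, n = 6 each). Cd3g averaged 980 ± 151 and 998 ± 124 FPKM. Lat was above Lck in 12 of 12 libraries. Lck, at 564 ± 61.3 FPKM, and Cd3d, at 556 ± 49.7 FPKM, again split 6 of 12. Cd247, the zeta chain, followed at 417 ± 180 FPKM and Dgka, a kinase that removes diacylglycerol, at 315 ± 53.8 FPKM. At first number 1 these were at 578 ± 88 and 349 ± 49.8 FPKM, and at first number 2 at 255 ± 18.7 and 282 ± 35.1 FPKM (SD, n = 6 each). Of the proximal kinases, Fyn had 183 ± 52.2 FPKM and Zap70 144 ± 38.5 FPKM.

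The third CD3 gene stood apart from its partners. Cd3e was at 24.2 ± 4.08 FPKM, rank 31 of 46, and had 39 to 94 counts per library, although CD3 epsilon pairs with both CD3 delta and CD3 gamma in the receptor. Every library was alike in this, with a highest Cd3e value of 31.6 FPKM and a lowest Cd3d value of 486 FPKM. No other annotated gene overlaps the exons of Cd3e, and the reason for its low level was not tested. At the lower end of the order were the calcineurin genes Ppp3cb (9.90 ± 4.71 FPKM), Ppp3ca (6.11 ± 5.05 FPKM) and Ppp3r1 (3.92 ± 2.19 FPKM), the thymocyte and T cell adaptor Themis (3.84 ± 3.99 FPKM), the ubiquitin ligases Cblb (4.58 ± 2.67 FPKM) and Cbl (2.86 ± 1.38 FPKM), and the phospholipase gene Plcg1 (1.62 ± 1.20 FPKM). Plcg1 had 1 to 49 counts per library, so single values of it rest on few reads.

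**Figure D1:**
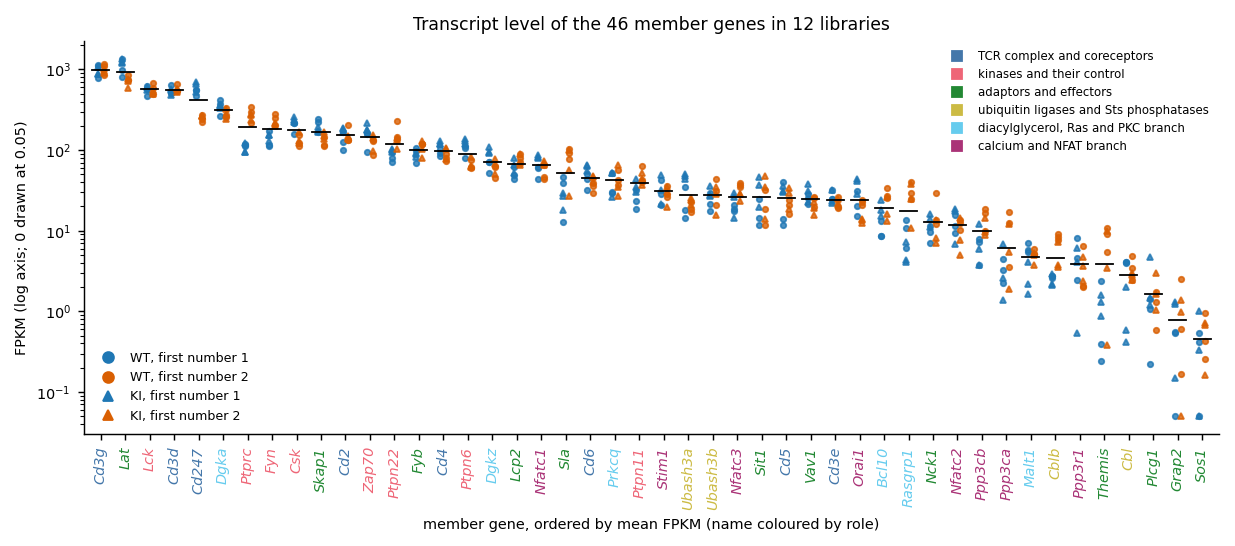
Level of the 46 members in the 12 libraries, as FPKM on a log axis (values of 0 are drawn at 0.05), ordered by their mean (black bar), with circles for WT, triangles for KI, blue for first number 1 and orange for first number 2. Cd3g and Lat stand at the top near 1000 FPKM, Cd3e at rank 31, and the blue and orange points separate for genes such as Cd247 and Ptprc.

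Whether Pdcd1 genotype goes with a different supply of receptor signalling transcripts was asked by comparing KI with WT. Of the members, 0 of 44 passed the edgeR quasi-likelihood test at an adjusted p of 0.05 over all genes, where 0.0265% of all tested genes did. DESeq2 and limma-voom also called 0. The edgeR fit had no term for the first number, and Pdcd1 did not pass it either (edgeR adjusted p 0.231). A member that did not pass is therefore not shown to be unchanged. The lowest edgeR adjusted p among the members was 0.914. At an unadjusted p under 0.05 there were 4 members (9.09%), against 5.40% of all tested genes. Of the 44 log2 fold changes 18 were positive and 26 negative. Their median was -0.07, beside 0.02 for all tested genes, and they lay between -1.02 and 1.01 with standard errors of 0.16 to 0.75. In no member did the 6 KI and 6 WT libraries separate without overlap, which occurred in 0.371% of all tested genes.

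Of the receptor complex and coreceptors, 0 of 8 members passed between the genotypes. Cd3d averaged 1028 ± 106 CPM over WT libraries against 972 ± 171 CPM over KI libraries (SD, n = 6 each), or -0.08 (SE 0.17) as a log2 fold change. For Cd3e the lowest, median and highest values were 38.3, 51.5 and 77.8 CPM in WT libraries, against 40.4, 51.9 and 59.8 CPM in KI, so the KI values lay inside the WT range. Its log2 fold change of -0.08 (SE 0.27) was -0.32 within first number 1 and 0.20 within first number 2, and no direction can be read from it. Cd4, the coreceptor that brings Lck, had 294, 391 and 474 CPM in WT libraries, against 393, 434 and 542 CPM in KI, again with wide overlap. The difference of Cd4 was 0.25 (SE 0.18, edgeR adjusted p 0.938) on the log2 scale, at 0.175 and 0.332 within first numbers 1 and 2. Within first number 1 the genotypes overlapped in Cd4. Within first number 2 the KI values, 393 to 431 CPM, lay above the WT values, 294 to 362 CPM. Cd5, which dampens receptor signals, and Cd2, an adhesion receptor, differed by 0.46 (SE 0.27) and 0.12 (SE 0.19). Cd6, a scavenger-receptor family coreceptor, had 112, 145 and 234 CPM in WT libraries, against 141, 210 and 276 CPM in KI. Cd6 differed by 0.41 on the log2 scale (SE 0.22, edgeR adjusted p 0.919), at 0.34 and 0.49 within first numbers 1 and 2.

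Of the genes of kinases and their control, 0 of 8 passed between the genotypes. Lck, which starts the cascade, had a lowest, median and highest value of 1320, 1736 and 1805 CPM in WT libraries, against 1300, 1623 and 1758 CPM in KI, ranges that almost coincide. The log2 fold change of Lck was -0.08 (SE 0.16), which was the smallest standard error among the members. Zap70 had 250, 385 and 520 CPM in WT libraries, against 365, 483 and 558 CPM in KI. Of the 6 KI libraries 3, all of first number 1, lay above all WT libraries. Its log2 fold change was 0.27 (SE 0.20, edgeR adjusted p 0.938), with 0.27 and 0.25 within first numbers 1 and 2. Ptpn11, which encodes the phosphatase that PD-1 recruits, averaged 286 ± 102 CPM over WT libraries against 310.5 ± 65.9 CPM over KI libraries (SD, n = 6 each), or 0.11 (SE 0.23) as a log2 fold change. For Ptpn6, the gene of the related phosphatase Shp-1, the log2 fold change was 0.18 (SE 0.25).

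Among the adaptors and effectors 0 of 10 tested members passed. Lat had 1163, 1557 and 2154 CPM in WT as lowest, median and highest values, and 866, 1725 and 2081 CPM in KI. The difference was 0.04 (SE 0.23) on the log2 scale and changed sign within first number 2 (-0.02), so no direction can be read from it. Sit1, a transmembrane adaptor that restrains receptor signalling, had 17.4, 26.5 and 48.3 CPM in WT libraries, against 27.4, 49.8 and 75.6 CPM in KI. Of the KI values 3 stood above all WT values. Sit1 had a log2 fold change of 0.77 (SE 0.35, unadjusted p 0.0403, edgeR adjusted p 0.917), at 0.84 and 0.69 within first numbers 1 and 2. Plcg1 had the highest fold change of all members, 1.01, but with a standard error of 0.56 and a WT mean of 6.55 CPM. Lcp2 differed by 0.05 (SE 0.18), the exchange factor gene Vav1 by -0.02 (SE 0.23) and the adaptor genes Fyb and Nck1 by -0.14 (SE 0.17) and -0.30 (SE 0.37). Grap2, the gene of the adaptor Gads, averaged 3.04 ± 3.35 CPM over WT libraries against 3.14 ± 2.30 CPM over KI libraries (SD, n = 6 each, two-sided exact permutation p 0.881 on log2(CPM + 1)). Sos1, a Ras exchange factor, was at 5.66 ± 3.98 and 5.62 ± 4.05 CPM (SD, n = 6 each, two-sided exact permutation p 0.957).

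The 4 genes of ubiquitin ligases and Sts phosphatases, which switch off receptor signalling, held 2 of the 4 members with an unadjusted p under 0.05, and these lay in opposite directions. Ubash3a, which encodes Sts-2, had 64.7, 79.2 and 133 CPM in WT libraries, against 75.5, 146 and 213 CPM in KI as lowest, median and highest values. Of the KI libraries 3, all of first number 1, lay above every WT library. Ubash3a had a log2 fold change of 0.73 (SE 0.27, unadjusted p 0.0137, edgeR adjusted p 0.914), at 0.90 within first number 1 and 0.42 within first number 2. Cbl, a ubiquitin ligase for activated kinases, had 16.9, 29.5 and 37.6 CPM in WT libraries, against 3.10, 15 and 26.2 CPM in KI. Its 3 lowest values, 12.1, 3.10 and 5.50 CPM from 19, 5 and 8 counts, were all KI libraries of first number 1. The log2 fold change of Cbl was -1.02 (SE 0.48, unadjusted p 0.0471, edgeR adjusted p 0.917), at -2.21 within first number 1 and -0.20 within first number 2. Ubash3b, the gene of Sts-1, had a log2 fold change of 0.01 (SE 0.24) and Cblb one of -0.63 (SE 0.40).

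Of the 6 members of the diacylglycerol, Ras and PKC branch, 0 passed between the genotypes. Dgkz, a diacylglycerol kinase, had 202, 310 and 375 CPM in WT libraries, against 283, 408 and 460 CPM in KI. The 3 KI libraries of first number 1 lay above all WT libraries. Dgkz had a log2 fold change of 0.35 (SE 0.20, edgeR adjusted p 0.919), with 0.38 and 0.30 within first numbers 1 and 2. Rasgrp1, the Ras activator that diacylglycerol recruits, had 55.4, 135 and 264 CPM in WT libraries, against 34.4, 62.0 and 234 CPM in KI. All 3 KI libraries of first number 1 lay below all WT libraries, and the log2 fold change was -1.10 within first number 1 and -0.25 within first number 2. Over all libraries it was -0.46 (SE 0.47, edgeR adjusted p 0.948). Malt1, a paracaspase, averaged 42.7 ± 6.87 CPM over WT libraries against 27 ± 10.4 CPM over KI libraries (SD, n = 6 each), or -0.66 as a log2 fold change (SE 0.35, edgeR adjusted p 0.919). The gap lay at first number 1, with 48.3 ± 3.54 CPM over WT against 18.9 ± 8.54 CPM over KI libraries. At first number 2 Malt1 had 37 ± 3.25 against 35 ± 1.23 CPM (SD, n = 3 each). Prkcq, protein kinase C theta, differed by -0.01 (SE 0.22).

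In the calcium and NFAT branch 0 of 8 members passed. Nfatc1, an NFAT factor that activated T cells induce, had 258, 362 and 406 CPM in WT libraries, against 372, 472 and 536 CPM in KI as lowest, median and highest values. Of the 6 KI libraries 5 lay above all WT libraries, more than for any other member. As a log2 fold change Nfatc1 gave 0.46 (SE 0.18, unadjusted p 0.0184, edgeR adjusted p 0.914), at 0.39 within first number 1 and 0.53 within first number 2. Nfatc2 and Nfatc3 differed by -0.11 (SE 0.28) and -0.18 (SE 0.23). The calcium sensor gene Stim1 differed by -0.02 (SE 0.21) and the channel gene Orai1 by 0.11 (SE 0.35).

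**Figure D2:**
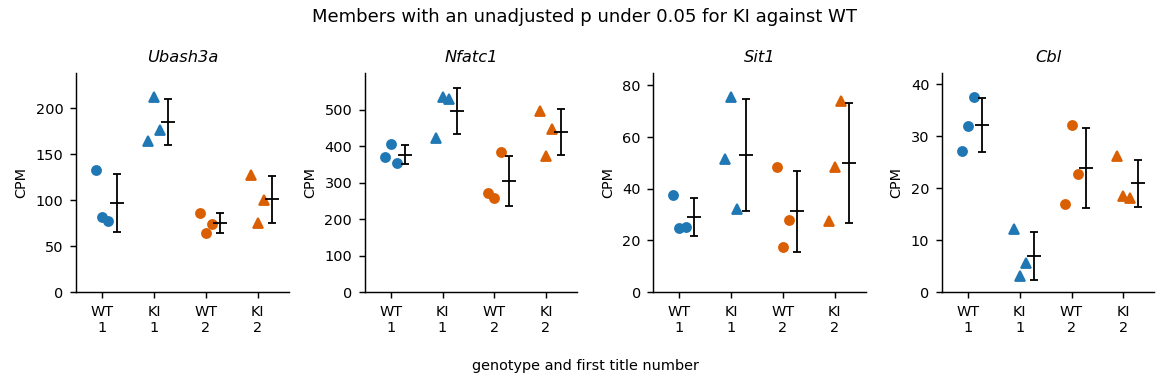
CPM of the 4 members with an unadjusted p under 0.05 for KI against WT, in the 3 libraries of each genotype and first number (circles WT, triangles KI, blue first number 1, orange first number 2), with the mean and SD in black. Cbl in KI libraries of first number 1 lies at 3.10 to 12.1 CPM, below all other libraries, and no member reached an adjusted p of 0.05.

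Other values moved beside the genotype contrast. The summed B cell markers, of which 13 of 14 had counts, ran from 226 to 598 CPM over WT and from 190 to 421 CPM over KI libraries. Of the defining B cell markers Pax5 was at 0 in every library, and Cd79a and Ms4a1 averaged 25.9 and 30.8 CPM over WT against 10.6 and 7.46 CPM over KI libraries. Cd22, the most abundant of the list, averaged 99.1 against 147 CPM, and no B cell marker tested passed between the genotypes. Across the 44 tested members the log2 fold change of KI against WT rose with the GC content of the transcript (Spearman 0.744, a description across genes that share the same libraries), beside 0.24 across 7120 tested genes. With an offset for GC content, an alternative added after the data were seen, the members' coefficient was 0.347 and 0 of 44 members passed. Whether B cell RNA had a part in these values was not tested.

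The members were next compared between first title numbers 2 and 1, with genotype in the model. Here 18 of 44 members changed (40.9%), beside 16.0% of all tested genes. The differences of the members were not larger than those of other genes, but had smaller standard errors. The median absolute log2 fold change was 0.449 over the members and 0.477 over all tested genes, with median standard errors of 0.185 and 0.369. Of the 18, 9 were higher at first number 2 (8.47% of all tested genes were) and 9 were lower (7.54% of all tested genes were). The 6 libraries of each first number did not overlap in 8 members, 4 in each direction, beside 6.48% of all tested genes. The median log2 fold change was -0.05 over the members and 0.01 over all tested genes, so the list did not move one way as a whole. Since RNA from pools of cells was measured, fewer cells of a kind and less RNA per cell cannot be told apart. As the labels do not say what the first number stands for, any difference of animals, experiments or library batches behind it cannot be told apart either. Leaving out WT 2-3 or KI 1-3 reduced the count of changed members to 11 each.

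In the receptor complex and coreceptors 1 of 8 members changed, and it was Cd247. Cd247 encodes the zeta chain, whose phosphorylated tail holds Zap70, and lies on chromosome 1 at 167718812 to 167807407 of mm9. Its 6 libraries of first number 1 had 1144, 1298 and 1525 CPM as lowest, median and highest values, and those of first number 2 had 460, 541 and 716 CPM. No library of one number came near the other. Cd247 fell by 1.24 on the log2 scale (SE 0.14, edgeR adjusted p 2.27e-05), by 1.35 in the WT libraries alone and by 1.15 in the KI libraries alone. Annotated exons of Gm16565, on the same strand, and Pou2f1, on the opposite strand, overlap 59.8% of its exon length. The sources used here do not say whether the counting used strand, which would not separate Cd247 from Gm16565. In contrast Cd3d had 1001 ± 133 and 999 ± 157 CPM and Cd3g 1351 ± 182 and 1320 ± 228 CPM at first numbers 1 and 2 (SD, n = 6 each). Their log2 fold changes were 0.00 (SE 0.15) and -0.03 (SE 0.15). Cd4 did not pass, at 470 ± 51.9 and 367 ± 52.4 CPM (SD, n = 6 each, edgeR adjusted p 0.0732), and neither did Cd3e, at 59.7 ± 12 and 47.0 ± 8.46 CPM (SD, n = 6 each, edgeR adjusted p 0.385).

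Genes of kinases and their control changed in 7 of 8 cases, 4 higher and 3 lower, with Lck as the member that did not pass (-0.11, SE 0.14, edgeR adjusted p 0.65). Ptprc encodes CD45, the phosphatase that keeps Lck ready for activation, and lies on chromosome 1 at 139959438 to 140071882 of mm9. It had 688, 785 and 1079 CPM at first number 1 and 1515, 2016 and 2378 CPM at first number 2, without overlap. Ptprc rose by 1.25 on the log2 scale (SE 0.15, edgeR adjusted p 2.35e-05), by 1.03 in WT and 1.45 in KI libraries alone. Fyn, the second Src-family kinase of T cells, had 607, 680 and 794 CPM at first number 1 and 880, 1033 and 1269 CPM at first number 2, again without overlap. Fyn rose by 0.63 (SE 0.14, edgeR adjusted p 0.00474). Csk, which inhibits Lck and Fyn, went the other way, from 630, 693 and 785 CPM to 331, 409 and 513 CPM. The groups did not overlap, and Csk fell by 0.75 (SE 0.15, edgeR adjusted p 0.00173).

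Phosphatases of the cascade split in direction. Ptpn6 (Shp-1) had 306, 349 and 418 CPM at first number 1 and 173, 206 and 231 CPM at first number 2. Ptpn6 fell by 0.81 on the log2 scale (SE 0.15, edgeR adjusted p 0.000932). Its relative Ptpn11 (Shp-2) had 159, 240 and 296 CPM and then 286, 332 and 462 CPM, with the ranges touching at their ends. Ptpn11 rose by 0.56 (SE 0.17, edgeR adjusted p 0.0278). Ptpn22, which removes phosphate from Lck and Zap70, had 304, 349 and 403 CPM at first number 1 and 438, 507 and 823 CPM at first number 2 without overlap, a rise of 0.63 (SE 0.16, edgeR adjusted p 0.00926). Zap70 had 383, 528 and 558 CPM and then 250, 377 and 430 CPM. These ranges overlapped, and the log2 fold change of -0.45 (SE 0.15, edgeR adjusted p 0.038) turned to 0.15 with an offset for GC content (edgeR adjusted p 0.624).

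Of the 10 tested adaptors and effectors 3 changed. Lat had 1786, 2002 and 2154 CPM at first number 1 and 866, 1220 and 1496 CPM at first number 2, without overlap. Lat fell by 0.70 on the log2 scale (SE 0.15, edgeR adjusted p 0.00268). Sla, the gene of an adaptor (SLAP) that lowers receptor levels, had 50.7, 92.8 and 218 CPM and then 94.9, 287 and 347 CPM. Its lowest value at first number 2 was that of KI 2-3, and Sla rose by 1.29 (SE 0.28, edgeR adjusted p 0.00341). Themis had 1.79, 6.12 and 12.6 CPM at first number 1 and 2.08, 39.9 and 57.9 CPM at first number 2, from 1 to 106 counts. KI 2-3 was again the low library at first number 2, while the others lay at 28.2 CPM or above. Themis rose by 2.42 (SE 0.58, edgeR adjusted p 0.00722), the highest fold change of any member. Lcp2, the gene of SLP-76 and the partner of Lat, had 277 ± 27.5 and 349 ± 36.4 CPM (SD, n = 6 each) and did not pass (edgeR adjusted p 0.11).

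Genes that switch off the cascade and the diacylglycerol branch also moved both ways. Cblb, a ubiquitin ligase that raises the need for costimulation, had 15.9, 24.2 and 32.2 CPM at first number 1 and 33.2, 61.0 and 75.9 CPM at first number 2. Cblb rose by 1.24 on the log2 scale (SE 0.29, edgeR adjusted p 0.00559), and the groups did not overlap. Ubash3a fell from 141 ± 54.1 to 87.9 ± 22.7 CPM (SD, n = 6 each; log2 -0.64, SE 0.21, edgeR adjusted p 0.0434), with values of 77, 149 and 213 CPM and of 64.7, 81.0 and 127 CPM that overlapped. Rasgrp1 lies on chromosome 2 at 117105729 to 117168737 of mm9, and had 34.4, 50.9 and 100.2 CPM at first number 1 and 77.6, 212 and 264 CPM at first number 2. Only KI 2-3 lay within the range of first number 1, and Rasgrp1 rose by 1.77 (SE 0.27, edgeR adjusted p 0.000163). The diacylglycerol kinases oppose Rasgrp1 by consuming its activator. Dgka had 1013, 1296 and 1430 CPM and then 824, 941 and 1086 CPM, a fall of 0.43 (SE 0.14, edgeR adjusted p 0.0423). Dgkz had 328, 412 and 460 CPM and then 202, 287 and 368 CPM, a log2 fold change of -0.47 (SE 0.14, edgeR adjusted p 0.0292) that turned to 0.11 with an offset for GC content (edgeR adjusted p 0.709).

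In the calcium and NFAT branch 2 of 8 members changed. Orai1, the pore of the store-operated calcium channel, had 37.0, 84.7 and 108 CPM at first number 1 and 29.7, 44.1 and 56.6 CPM at first number 2, and fell by 0.85 on the log2 scale (SE 0.29, edgeR adjusted p 0.0492). The difference of Orai1 was -0.30 in WT libraries alone and -1.43 in KI libraries alone. Ppp3cb, a catalytic subunit of calcineurin, had 21.1, 36.0 and 55.9 CPM and then 47.1, 66.3 and 93.6 CPM, with a log2 fold change of 0.86 (SE 0.29, edgeR adjusted p 0.043) that turned to -0.01 with an offset for GC content (edgeR adjusted p 0.985). None of the 3 NFAT genes passed, with log2 fold changes of -0.24 for Nfatc1, -0.42 for Nfatc2 and 0.49 for Nfatc3. Over all roles, the 26 tested members that did not pass lay between -0.52 for Skap1 and 1.23 for Ppp3ca. Grap2 and Sos1, below the filter, had two-sided exact permutation p-values of 0.645 and 0.314 between first numbers.

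**Figure D3:**
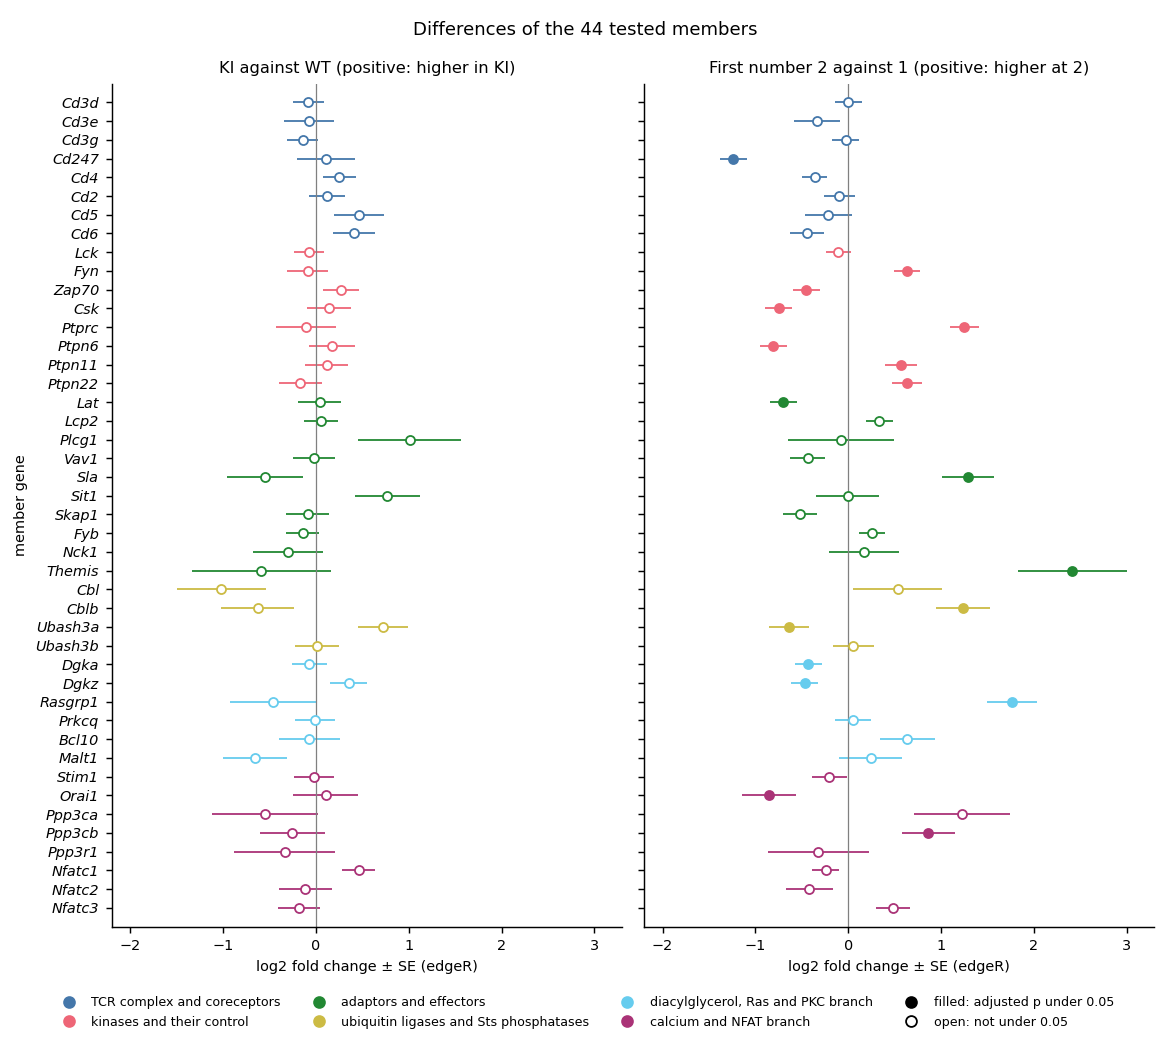
Log2 fold change with its standard error for the 44 tested members, for KI against WT (left) and first number 2 against 1 (right), coloured by role, with filled symbols for an edgeR adjusted p under 0.05. The left panel has 0 filled symbols and the right panel has 18, with 9 on each side of 0.

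**Figure D4:**
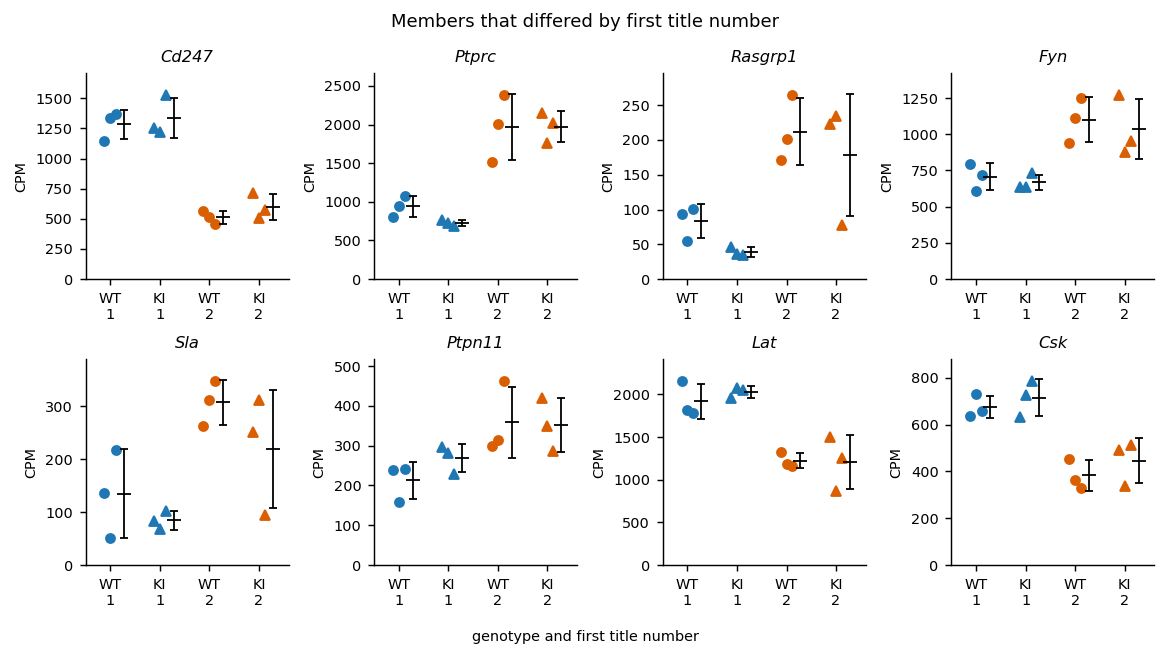
CPM of 8 members that changed between first numbers, in the 3 libraries of each genotype and first number (circles WT, triangles KI, blue first number 1, orange first number 2), with the mean and SD in black. Cd247, Lat and Csk are lower in all 6 orange libraries, Ptprc and Fyn higher, and KI 2-3 is the low orange triangle of Rasgrp1 and Sla.

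The changed members differed in base composition by direction. The 9 members higher at first number 2 had transcripts with a median GC content of 46%, and the 9 lower ones 58.2%, with ranges that overlapped. Across the 44 members the log2 fold change fell with GC content (Spearman -0.678, a description across genes measured in the same libraries). The same coefficient was -0.612 across 7120 tested genes, so this relation was not confined to the members. The 22 members at or above the median GC content of 50.6% exceeded the 22 below it by 1.17 to 2.01 in mean log2 CPM in libraries of first number 1. In libraries of first number 2 the gap was 0.24 to 1.25, and the highest of these, KI 2-3, lay inside the other range. The fold change rose with transcript length, with a Spearman coefficient of 0.441 in the members and 0.165 in all genes.

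When the trend on GC content was taken out of each library by an offset, an alternative added after the data were seen, 6 of 44 members changed (13.6%), beside 5.66% of 7120 genes. All 6 were among the 18, and 5 were higher and 1 lower at first number 2. Rasgrp1 (log2 1.42, edgeR adjusted p 0.00128), Sla (0.96, 0.0328 by the same test), Ptpn11 (0.67, 0.0254), Ptprc (0.55, 0.0389) and Fyn (0.52, 0.0365) rose. Cd247 fell by 1.84 (edgeR adjusted p 3.88e-07), more than without the offset, and its transcript has a GC content of 43.3%. The differences of Zap70, Dgkz and Ppp3cb changed sign with the offset, to 0.15, 0.11 and -0.01, so no direction can be read for them. Of the 8 members that had separated without overlap, 5 did not pass with the offset. Lat was at -0.19 (edgeR adjusted p 0.483), Csk at -0.14 (0.619), Ptpn6 at -0.48 (0.0599), Ptpn22 at 0.14 (0.692) and Cblb at 0.83 (0.0955). Over all 25 alternatives run for each of them, Cd247, Ptprc and Rasgrp1 passed in every one.

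**Figure D5:**
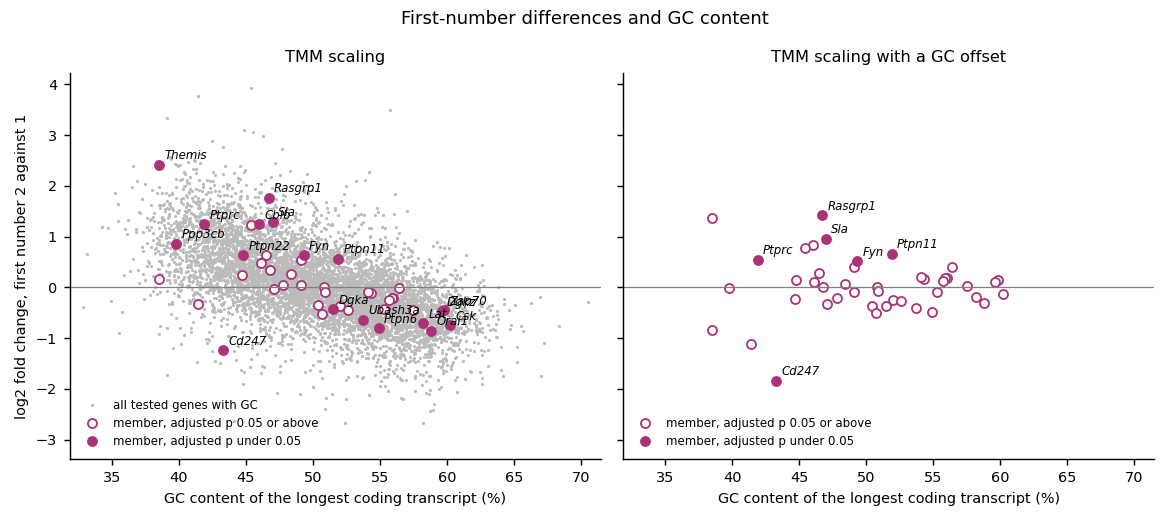
Log2 fold change of first number 2 against 1 plotted on the GC content of the longest coding transcript, with TMM scaling (left; grey points are 7120 tested genes) and with the GC offset (right; members only). Filled member symbols have an adjusted p under 0.05, 18 on the left and 6 on the right. Cd247 lies at -1.24 and -1.84, while the other filled members with a GC content near or below its own lie above 0.

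Markers of other cell types moved with the first number as well. The 10 NK and CD8 cytotoxic markers, of which 9 had counts, summed to 48.4 to 195 CPM at first number 1 and to 219 to 484 CPM at first number 2, without overlap. Most of this was Nkg7, at 78.8 and 328 CPM on average. Cd8b1 averaged 10.8 and 31.7 CPM (edgeR adjusted p 0.0332) and Klrb1c 8.56 and 27.3 CPM (edgeR adjusted p 0.0226), while Ncr1 was at 0 in every library and Gzma had counts in 1 library. Summed T cell and follicular helper markers ran from 2028 to 2437 CPM at first number 1 and from 2335 to 3112 CPM at first number 2, but the list split. Cd28, Icos and Sh2d1a rose (edgeR adjusted p 0.0237, 0.0158 and 0.00257). Cxcr5 fell from 745 to 453 CPM on average and Tox2 from 37.4 to 15.2 CPM (edgeR adjusted p 0.00208 and 0.0207). Cd40lg, Il21 and Bcl6 did not pass. Myeloid markers reached 258 CPM in WT 1-3 and stayed at or below 54.7 CPM elsewhere. The part of these transcripts in the members' differences was not tested.

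Whether the genotype difference itself depended on the first number was tested as an interaction. For the members 0 of 44 passed in edgeR, as for all tested genes, and 4 had an unadjusted p under 0.05 (9.09%), beside 7.21% of all tested genes. These were Skap1, an adaptor for integrin activation, at 0.86 (SE 0.31), Cbl at 2.00 (SE 0.85), Bcl10, the partner of Malt1, at -1.26 (SE 0.55) and Orai1 at -1.17 (SE 0.53), each as the KI minus WT difference at first number 2 less that at first number 1, on the log2 scale. Their edgeR adjusted p ran from 0.50 for Skap1 to 0.668 for Orai1. At first number 1 Skap1 averaged 598 ± 66.1 CPM over WT against 438 ± 68.2 CPM over KI libraries, and at first number 2 it was 309 ± 43 against 413 ± 99.4 CPM (SD, n = 3 each).

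The mean log2 CPM of the 44 tested members summarised the list. This score was 7.37 ± 0.10 in WT and 7.33 ± 0.11 in KI (SD, n = 6 each), a difference of -0.03 that was smaller than the spread of 0.11 between libraries. By first number it was 7.30 ± 0.08 and 7.40 ± 0.11 (SD, n = 6 each), a difference of 0.10 beside a spread of 0.09. It averages over members whose first-number differences ran from Themis at 2.42 to Cd247 at -1.24.

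Other genes of T cell receptor signalling were taken from a list of 96, of which 91 were in the table and 73 were tested. Between the genotypes 0 of 73 passed in edgeR, and 2 had an unadjusted p under 0.05, both lower in KI. These were Rasa2, a Ras inhibitor, at 154 ± 246 CPM over WT libraries against 42.4 ± 19.7 CPM over KI libraries (SD, n = 6 each; log2 -1.84, edgeR adjusted p 0.914), and Tnfaip3, an inhibitor of NF-kappaB signalling, at 23.8 ± 9.30 and 11.5 ± 7.73 CPM (SD, n = 6 each; log2 -1.06, edgeR adjusted p 0.917). In the positive direction the calcineurin inhibitor Cabin1 had a log2 fold change of 0.52 (SE 0.33) and did not pass.

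Between first numbers 24 of the 73 changed (32.9%, beside 16.0% of all tested genes), 13 higher and 11 lower at first number 2. Over the 73 the median absolute log2 fold change was 0.527 and the median standard error 0.274, beside 0.477 and 0.369 over all tested genes. The higher genes with the smallest p-values included Rasa1, a Ras inhibitor (log2 2.07), Wipf1 (log2 0.90), Cdc42, which encodes a GTPase that organises actin (log2 0.81) and the ubiquitin ligase gene Peli1 (log2 0.89). On the lower side stood Arhgap45 (fell by 1.21), Rasal3, a Ras inhibitor (fell by 1.25), the adaptor gene Dok2 (fell by 2.05) and the potassium channel gene Kcnn4 (fell by 0.68). Dok2, for example, went from 119 ± 34.9 to 28.8 ± 12.1 CPM (SD, n = 6 each). The log2 fold changes of 71 of these genes had a Spearman coefficient of -0.616 with GC content, and 6 of them passed with the GC offset.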

How the data were processed

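The authors deposited a table of raw read counts per gene symbol and a table of FPKM values (fragments scaled by transcript length and depth). The submitters' processing notes name CASAVA, TopHat2, HTSeq, Cufflinks and DESeq2 and the build mm9, without versions. Strand use is not given in the sources used here. The 5 HTSeq summary entries were left out. Names repeated in the FPKM table (27) were summed.

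Counts were tested in R 4.3.3 with edgeR 4.0.16 (filterByExpr, TMM, glmQLFit with default settings, glmQLFTest) and Benjamini-Hochberg adjustment over all 7542 genes. KI against WT had no covariate, and the first-number contrast had genotype. CPM are TMM-scaled. Scores used log2 CPM with a prior count of 2. Genes below the filter had exact permutation tests on log2(CPM + 1). Alternatives used DESeq2 1.42.0, limma 3.58.1, other scalings and filters, FPKM with pseudocounts 1 and 0.1, title-number blocks, and each library left out. The GC offset removed a lowess trend of each library's log2 values on GC content (longest GENCODE vM1 coding transcript). Promoter sequences are from RefSeq. Scripts were tested on simulated counts. Over 30 pairs of one genotype, chi-square per degree of freedom was 8.90 to 43.1, above the value near 1 of pure sampling noise.

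Every member could be named. Lowest, median and highest values over libraries, or means and SD, were given for members passing in either contrast. They were also given for members with an unadjusted edgeR p under 0.05 for genotype, with or without the first number as a covariate. The same holds for Cd3e, Cd4, Lck, Zap70 and Lat, and for some other members. Other pathway genes were named by smallest p, and some of these are not reported here. Members, lists and tests were chosen with earlier results of these data known.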

Additional observations from a re-analysis of the deposited data

Results flagged for a closer look

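Of 92 sets of 6 libraries, 46 members in each genotype, 4 held a library far from the nearest of the other 5, and chance would give about 4.6. Cd3g was high in KI 2-1, at 1657 CPM from 1329 counts, with 1249 CPM as the nearest. Lck was low in WT 2-2, at 1320 CPM from 2347 counts, with 1610 CPM as the nearest. Nck1, a gene of an adaptor that links the receptor to actin, was high in WT 2-3, at 66.4 CPM from 88 counts, with 29.8 CPM as the nearest. Nfatc3 was low in KI 1-3, at 118 CPM from 172 counts, with 209 CPM as the nearest. None of these 4 genes was among the members that changed.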

How the results depend on the processing

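For KI against WT, 0 members and 0 other pathway genes passed under the main test and every alternative. For first number 2 against 1, the 18 changed members became 11 (7 higher, 4 lower) with FPKM and a pseudocount of 1, 10 (6 and 4) with 0.1, 8 (3 and 5) in WT libraries alone, 5 (3 and 2) in KI libraries alone, 6 (5 and 1) with the GC offset, and 11 to 17 with a library left out. Among all tested genes the 1208 changed became 887, 795, 381, 359 and 403 under those first 5 alternatives. DESeq2 and a mean of at least 50 counts gave 20 members each and the edgeR version 4 method 19. The 24 other pathway genes became 15 (9 and 6), 13 (8 and 5), 6 (3 and 3), 9 (5 and 4) and 6 (4 and 2) in that order, and 12 (without KI 2-2) to 22. The cause of these lower counts was not tested, beyond fewer libraries where some were left out. Pdcd1 passed at -2.07 with DESeq2 and -2.01 without a filter, -1.88 and -2.68 within first numbers 1 and 2, and -2.17 with the GC offset. It was -2.32 to -1.81 with a library left out. Cd3e turned to 0.0086 with limma-voom, 0.195 within first number 2 and ranged from -0.163 to 0.0405 with a library left out, positive without WT 1-2. Lat turned to -0.0208 within first number 2, -0.0647 with the GC offset, and ranged from -0.0439 to 0.171 with a library left out, negative without any 1 of WT 2-1, 2-2 and 2-3 or KI 1-1, 1-2 and 1-3. With the offset Zap70, Dgkz and Ppp3cb by first number turned to 0.146, 0.112 and -0.0117. With the main processing the score differed by -0.0333 between genotypes (pooled SD 0.105) and by 0.0961 between first numbers (pooled SD 0.0926).

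In the fit with a replicate block by first number 0 members passed, and 7 had an unadjusted edgeR p under 0.05 (15.9%, beside 8.33% of all tested genes). Higher in KI were Ubash3a (unadjusted edgeR p 0.00488), Nfatc1 (0.00512), Dgkz (0.0266), Cd6 (0.0306) and Sit1 (0.0339). Lower in KI were Rasgrp1 (0.0223) and Cbl (0.0245). Pdcd1, with an adjusted p of 0.231 without the block, passed with it at -2.24 (edgeR adjusted p 7.62e-06), or at -2.23 (5.14e-05) with both numbers as the block. Libraries with both numbers alike deviated together with correlations of 0.0828 to 0.258 over 6 pairs, not all above 0.1, and 4 of 12 correlated best with their own number in the other genotype. WT and KI libraries sharing the first number had a mean correlation of 0.166, and those that did not -0.165. As the labels do not give their meaning, the numbers were not taken to pair libraries. Depth limits the low members: Plcg1, Cbl, Themis, Ppp3ca, Ppp3r1, Grap2 and Sos1 had 10 counts or fewer in at least 1 library.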
